A study of Mus musculus with 11 samples.

Results

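The 10 genes described here encode the NF-κB transcription factor and the proteins that hold it in check: the subunits Rel, Rela, Relb, Nfkb1 and Nfkb2, the inhibitors Nfkbia and Nfkbie, and the feedback regulators and survival genes Tnfaip3, Traf1 and Birc3. They were taken by the Ensembl identifier of each mouse symbol from a table of 48795 genes, and all 10 were found. Their RNA was followed in 11 libraries of B cells sorted from the spleens of female mice, 8 to 12 weeks old, on day 10 after intravenous immunization with sheep red blood cells (SRBC). Light zone (LZ) germinal center B cells came from 4 Myc WT mice (mice 1 to 4) and 4 Myc V394D mice (mice 5 to 8, Myc VD), and memory B cells (MBCs) from 3 of those Myc WT mice (mice 1, 3 and 4). The V394D exchange lies in the endogenous Myc gene of all cells of the animal and removes the binding of MYC to MIZ1 while sparing that to MAX, so the B cells and every other cell of a Myc VD mouse carry it. LZ B cells were sorted as B220+ CD138neg IgDneg CD38neg Fas+ CD86high CXCR4low and MBCs as B220+ CD138neg IgDneg CD38+ CD273+. The RNA level of Myc does not report a single amino acid exchange, so the genotype labels have no check in these data.

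NF-κB binds DNA as dimers of the 5 subunits. Rel (c-Rel), Rela and Relb carry the domain that activates transcription, whereas Nfkb1 and Nfkb2 encode precursors that are cut into DNA-binding partners without one. In resting B cells the dimers are held in the cytoplasm by IκB proteins, and signals from the B cell receptor, CD40 and the BAFF receptor release them through the IKK kinases. Many targets of NF-κB act back on the pathway, among them the IκB genes, Tnfaip3 and Birc3. In the germinal center, CD40 signals from follicular helper T cells reach B cells in the LZ, where Rel is known to be needed to maintain the reaction.

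The members lie on 9 chromosomes (GRCm38). Rel spans chr11:23736847-23770970 on the minus strand, Nfkb1 chr3:135584655-135691547 on the minus strand, Nfkbia chr12:55489410-55492647 on the minus strand and Birc3 chr9:7848699-7873186 on the minus strand. All are protein coding. Nfkb1 overlaps a predicted gene, Gm43430, on its own strand, so reads from the shared part may have been divided between both. RefSeq promoter windows of the same build were at hand for 8 of the 10 members (not for Relb and Nfkb1), 11 windows in all, and the 250 bases before each start were searched on both strands for the κB consensus motif. The motif was found in 7 of the 11 windows, which belong to 5 of the 8 members (Rel, Nfkb2, Nfkbia, Nfkbie and Tnfaip3), against 7.25% of 32851 promoter windows of all genes. Matches may overlap, and a match is a description of the letters, not of a site in use. The upstream sequences of Rel, of both inhibitors and, as a member without a match, of Birc3 are shown 5′ to 3′ on the strand of the gene, with matches in capitals. They cover chr11:23770971-23771219 for Rel, chr12:55492648-55492897 for Nfkbia, chr17:45555450-45555699 for Nfkbie and chr9:7873187-7873420 for Birc3.
Rel: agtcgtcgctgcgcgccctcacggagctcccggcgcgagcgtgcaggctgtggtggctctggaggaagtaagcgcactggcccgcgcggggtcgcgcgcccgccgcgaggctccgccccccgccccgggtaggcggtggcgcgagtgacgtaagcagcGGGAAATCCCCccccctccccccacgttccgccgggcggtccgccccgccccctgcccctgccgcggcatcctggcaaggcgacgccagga
Nfkbia: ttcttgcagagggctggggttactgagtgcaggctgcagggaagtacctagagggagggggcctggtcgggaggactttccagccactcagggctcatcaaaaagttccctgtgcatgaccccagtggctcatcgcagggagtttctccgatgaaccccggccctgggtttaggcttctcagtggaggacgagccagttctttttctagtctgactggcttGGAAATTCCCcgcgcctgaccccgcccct
Nfkbie: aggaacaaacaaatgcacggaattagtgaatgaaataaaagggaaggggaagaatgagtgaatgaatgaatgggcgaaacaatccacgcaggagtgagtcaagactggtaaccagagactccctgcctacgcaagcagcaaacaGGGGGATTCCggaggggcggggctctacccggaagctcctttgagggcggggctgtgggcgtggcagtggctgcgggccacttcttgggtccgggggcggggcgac
Birc3: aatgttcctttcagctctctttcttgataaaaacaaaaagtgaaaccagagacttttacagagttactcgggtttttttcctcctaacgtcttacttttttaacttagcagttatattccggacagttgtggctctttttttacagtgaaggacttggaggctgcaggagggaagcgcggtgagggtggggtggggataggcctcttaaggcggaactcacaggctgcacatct
The capitals in Rel hold 2 overlapping matches from -92 to -82 relative to the RefSeq start. The match in Nfkbia lies from -29 to -20 and that in Nfkbie from -106 to -97.

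Germinal center and memory markers set LZ B cells apart from MBCs, whereas light zone markers did not. In TPM (transcripts counted per length and scaled to a fixed total), the germinal center regulator Bcl6 was at 156.14 to 214.83 in Myc WT LZ B cells, 141.70 to 207.04 in Myc VD LZ B cells and 23.19 to 53.35 in MBCs, and the summed TPM of 8 memory genes were 42.1 to 57.2, 17.7 to 42.2 and 585 to 719. Of the memory genes, 6 were higher in every MBC library than in all Myc WT LZ libraries (Cd38 and Pdcd1lg2 among them were used for sorting), while Nt5e (6.80 to 11.47 TPM in MBCs against 10.79 to 13.37 TPM) and Zbtb32 overlapped. The 3 light zone markers, of which Cd86 was used for sorting, summed to 403 to 614 TPM in Myc WT LZ B cells, 337 to 432 TPM in Myc VD LZ B cells and 362 to 536 TPM in MBCs, so the light zone label could not be checked by them. MBC libraries also held more RNA of the naive follicular B cell marker Fcer2a, at 480.33 to 531.48 TPM against 185.29 to 212.90 TPM in Myc WT LZ B cells. All 4 markers of B cells in general were likewise higher in every MBC library than in all Myc WT LZ libraries. Their sums were 2748 to 3913 TPM against 1501 to 2039 TPM. Summed myeloid markers were at 7.69 to 18.7 TPM in Myc WT LZ B cells, 10.9 to 18.0 TPM in Myc VD LZ B cells and 36.4 to 178 TPM in MBCs. Of these 6 markers, 3 were higher in every MBC library than in all Myc WT LZ libraries. They were Csf1r (5.89 to 16.35 against 0 to 0.08 TPM), Itgam (3.84 to 9.18 against 0 to 0.12 TPM) and Cd68 (16.56 to 22.46 against 6.87 to 9.54 TPM). S100a8 and S100a9 were at 0 in all MBCs and in all Myc VD LZ libraries. T cell markers reached at most 12.5 TPM in any library. Summed plasma cell markers were at 210 to 358 TPM in Myc WT and 114 to 206 TPM in Myc VD LZ B cells, without overlap. Of these only Jchain separated the genotypes (151.94 to 280.36 against 67.11 to 143.94 TPM), while Sdc1, Prdm1 and Xbp1 overlapped. The part of these markers in the differences between groups was not tested. In bulk RNA, fewer cells of a type and less RNA per cell cannot be told apart. The MBC libraries were the most uneven. Pearson's r between pairs of them, across genes, was 0.65 to 0.75, against 0.91 to 0.95 between Myc WT LZ libraries, and erythroid genes summed to 4727 TPM in the MBCs of mouse 3 but to 3.82 and 37.4 TPM in those of mice 1 and 4. The MBC library of mouse 4 was closer to all LZ libraries than to the other MBCs. Its r was 0.82 to 0.84 with Myc WT LZ and 0.77 to 0.81 with Myc VD LZ libraries. With the MBCs of mice 1 and 3 its r was 0.75 and 0.74. Between Myc VD LZ libraries r was 0.83 to 0.88. Genes above 0 TPM numbered 13169 to 16421 in Myc VD and 15460 to 19537 in Myc WT LZ libraries. Ribosomal RNA took 44.1 to 61.3% of TPM in Myc VD and 35.7 to 44.5% in Myc WT LZ libraries. The median difference of all genes between the genotypes was -0.31 on the log2(TPM + 1) scale, and -0.05 with ribosomal RNA genes removed. Differences between genotypes are therefore also given relative to that median. The titles of mice 1 to 3 share a prefix, mouse 4 has a different one and mice 5 to 8 share yet another, and what these stand for is not given, so genotype and prefix cannot be told apart.

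In all 3 groups Birc3, an inhibitor of apoptosis and ubiquitin ligase that is itself an NF-κB target, had the highest mean level of the 10 members, followed by Rel, Nfkb1, Traf1 and Nfkbie, and Relb had the lowest. Because TPM are scaled for transcript length, levels of different genes can be set side by side. Means in Myc WT LZ B cells were 104 ± 3.59 TPM for Birc3 (SD, n = 4), 93.9 ± 8.22 TPM for Rel, 54.1 ± 6.45 TPM for Nfkb1, 31.3 ± 7.25 TPM for Traf1 and 24.1 ± 2.85 TPM for Nfkbie. Nfkbia (17.5 ± 3.31 TPM), Tnfaip3 (17.0 ± 6.56 TPM), Rela (16.8 ± 2.76 TPM) and Nfkb2 (15.7 ± 2.57 TPM) followed closely, and Relb (8.13 ± 2.11 TPM) came last. The libraries of Birc3 and Rel overlapped, as did those of each neighbouring pair from Traf1 down to Nfkb2, so these ranges do not set the order within these stretches. Within single Myc WT LZ libraries, Birc3 was above Rel, Traf1 above Nfkbie and Rela above Nfkb2 in all 4, whereas the order of the other neighbours in these stretches changed between mice. Rel stood clear of Nfkb1, Nfkb1 of Traf1, and Nfkb2 of Relb in every Myc WT LZ library. In Myc VD LZ B cells and in MBCs, Birc3 overlapped Rel and Rel overlapped Nfkb1. Rel was above Nfkb1 in 3 of 4 Myc VD LZ libraries but in only 1 of 3 MBC libraries. No member was at 0 TPM in any library.

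**Figure D1:**
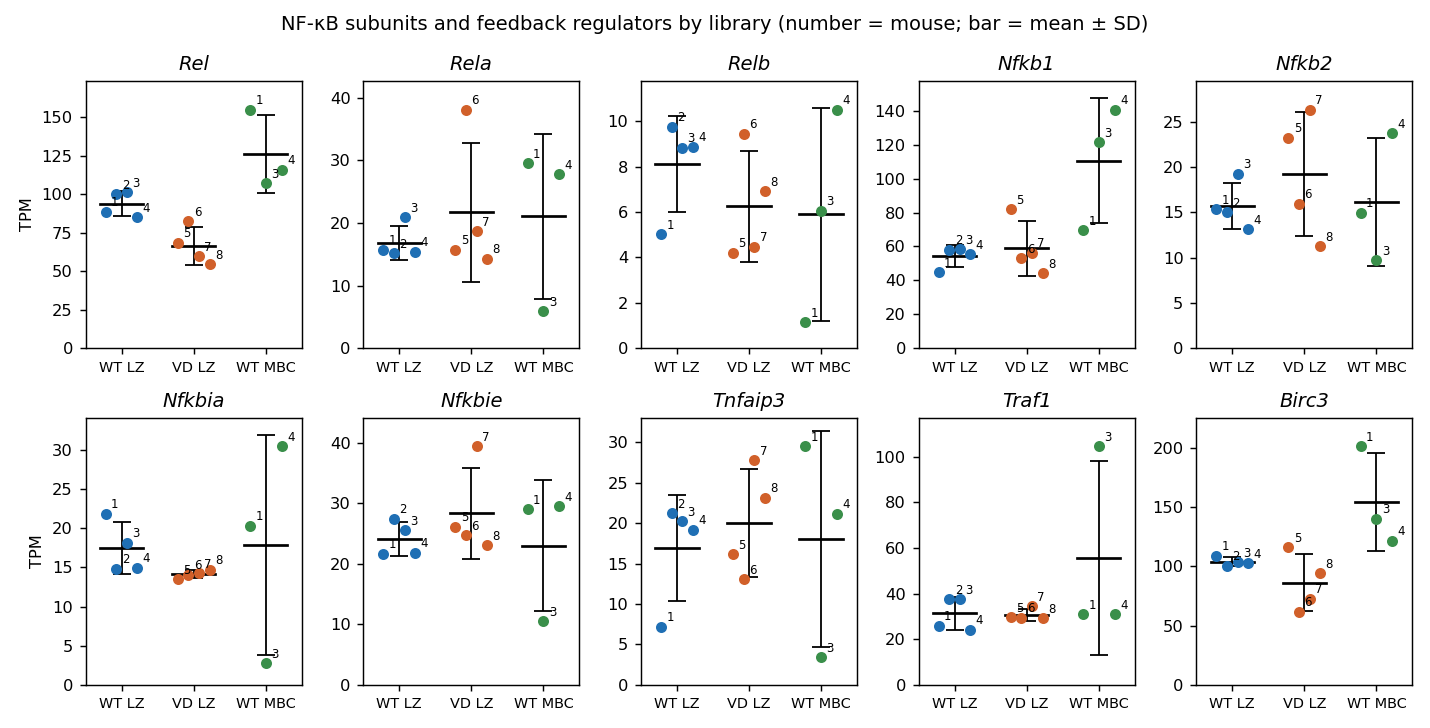
TPM of each of the 10 members (y axis, from 0, a scale of its own in each panel) in LZ B cells of Myc WT and Myc VD mice and in MBCs of Myc WT mice; points are libraries numbered by mouse, bars the mean ± SD (n = 4, 4 and 3). Rel in Myc VD LZ B cells (54.7 to 82.6 TPM) lies below all Myc WT LZ libraries (85.1 to 101.5 TPM), Nfkb1 and Birc3 have their highest means in MBCs, and the MBCs of mouse 3 are lowest for Rela, Nfkb2, Nfkbia, Nfkbie and Tnfaip3 and highest for Traf1.

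To see whether loss of the MYC–MIZ1 interaction went along with other levels of the subunits, LZ B cells of both genotypes were compared. Rel had the largest difference on the scale of the deposited TPM, though not relative to the median of all genes. Its level was 88.81, 100.26, 101.52 and 85.05 TPM in mice 1 to 4 and 68.54, 82.56, 59.59 and 54.66 TPM in the Myc VD mice 5 to 8. All 4 Myc VD libraries were below all 4 Myc WT libraries, and the ratio of the means was 0.706. On the log2(TPM + 1) scale the difference was -0.51 ± 0.20 (SE; limma p = 0.0272, adjusted p = 0.237; exact permutation p = 0.0286, the smallest that 4 against 4 libraries allow), so it did not pass the adjusted threshold. Relative to the median of all genes the difference was -0.20, and after rescaling by median ratios it was -0.17.

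None of the other subunits separated the genotypes. Rela, the most widely expressed activating subunit, was at 15.69, 15.15, 20.91 and 15.41 TPM in Myc WT and at 15.73, 38.09, 18.67 and 14.27 TPM in Myc VD LZ B cells. The groups overlapped, with mouse 6 far above the rest, and the difference was 0.25 ± 0.32 (adjusted p = 0.712), or 0.56 relative to the median of all genes and 0.58 after median ratio scaling. Without mouse 6 it was -0.04. Nfkb1 was at 44.64, 58.02, 58.39 and 55.40 TPM in Myc WT and at 82.01, 53.04, 56.21 and 44.13 TPM in Myc VD mice, a difference of 0.09 ± 0.23 (adjusted p = 0.875), or 0.40 relative to the median of all genes and 0.43 after median ratio scaling (adjusted p = 0.381). Here mouse 5 was the high one, and without it the difference was -0.08. Relb and Nfkb2, the pair of the alternative pathway that the BAFF receptor and CD40 engage, differed by -0.36 ± 0.35 and 0.22 ± 0.30 (adjusted p = 0.628 and 0.741), with overlapping groups for both. Relative to the median of all genes these were -0.05 and 0.53, and after median ratio scaling -0.05 and 0.54.

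Because the share of a subunit within the summed TPM of all 5 does not depend on how a library is scaled, the makeup of the family was also compared. Rel made up 52.4, 50.6, 48.6 and 47.8% of subunit RNA in LZ B cells of Myc WT mice 1 to 4 and 35.4, 41.5, 36.05 and 41.6% in those of Myc VD mice 5 to 8. These ranges did not overlap, and the mean share was 49.8 ± 2.06% against 38.6 ± 3.39% (SD, n = 4 each). Leaving out each library in turn gave differences of -12.2 to -10.1 percentage points. Nfkb1 made up 26.3 to 31.1% in Myc WT and 26.6 to 42.3% in Myc VD, which overlap, and the ratio of Rel to Rela was 4.86 to 6.62 in Myc WT and 2.17 to 4.36 in Myc VD, which do not. The lowest ratio, 2.17, was that of mouse 6 with its high Rela. The ratio of Nfkb1 to Rel was 0.503 to 0.651 in Myc WT and 0.642 to 1.20 in Myc VD, which overlap. The summed level of the 5 subunits was 170 to 209 TPM in Myc WT and 131 to 199 TPM in Myc VD. The shares are given as values, without a test of their own.

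**Figure D2:**
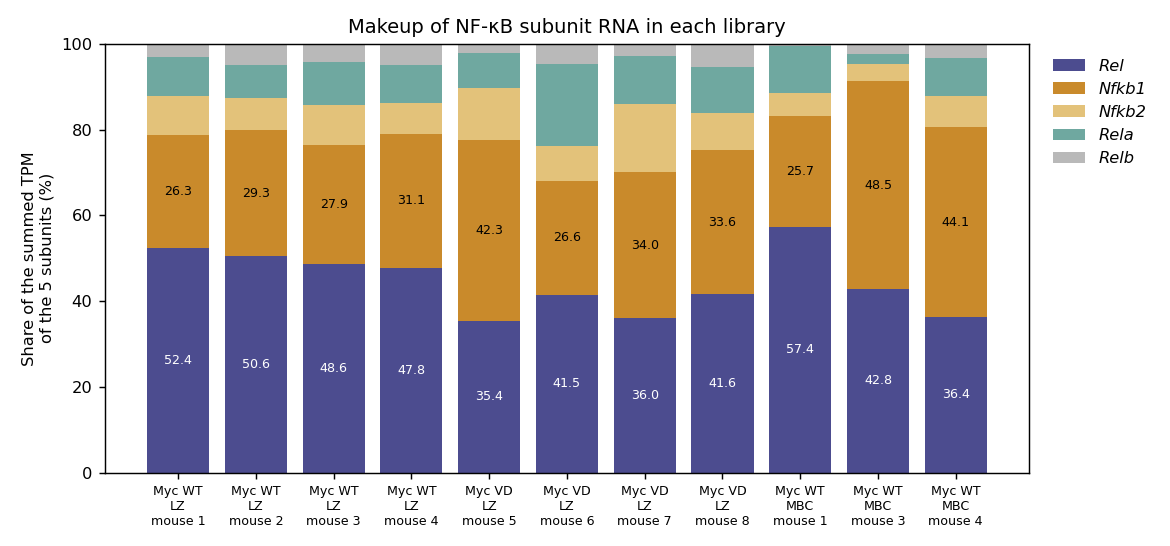
Share of each NF-κB subunit in the summed TPM of the 5 subunits (y axis, percent) in each of the 11 libraries (x axis, by group and mouse); numbers in the bars are the shares of Rel and Nfkb1. Rel takes 47.8 to 52.4% in Myc WT LZ B cells and 35.4 to 41.6% in Myc VD LZ B cells, and in the MBCs of mice 3 and 4 Nfkb1 takes more than Rel.

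Of the inhibitors and feedback genes, only Nfkbia separated the genotypes. Nfkbia encodes IκBα, the inhibitor that NF-κB itself induces and that ends a round of signaling. Its level was 21.86, 14.86, 18.15 and 14.95 TPM in Myc WT mice 1 to 4 and 13.53, 14.06, 14.28 and 14.72 TPM in Myc VD mice 5 to 8. Every Myc VD library was below every Myc WT library, but the gap between the nearest of them was small, from 14.72 to 14.86 TPM. The difference was -0.27 ± 0.25 (adjusted p = 0.597; exact permutation p = 0.0286), which was 0.04 above the median of all genes, and its sign turned to 0.06 after median ratio scaling and to 0.03 after removal of ribosomal RNA genes. Nfkbie, which encodes IκBε, was at 21.67 to 27.47 TPM in Myc WT and at 23.05 to 39.44 TPM in Myc VD, and the difference of 0.20 ± 0.25 did not pass the test (adjusted p = 0.706). It was 0.51 relative to the median of all genes and 0.53 after median ratio scaling (adjusted p = 0.385).

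Tnfaip3, a ubiquitin-editing enzyme that shuts off signals to IKK, was at 7.20, 21.20, 20.26 and 19.17 TPM in Myc WT and at 16.13, 13.03, 27.81 and 23.14 TPM in Myc VD LZ B cells. The groups overlapped (difference 0.27 ± 0.37, adjusted p = 0.736, 0.58 relative to the median of all genes and 0.60 after median ratio scaling), with mouse 1 as the lowest, and without mouse 1 the sign turned, to -0.07. Traf1, an adaptor of TNF receptors that NF-κB induces, was at 24.20 to 37.60 TPM and 29.26 to 34.44 TPM, a difference of -0.01 ± 0.23 (adjusted p = 0.993), which was 0.30 above the median of all genes and 0.33 after median ratio scaling. Birc3 was at 109.11, 100.67, 103.56 and 102.90 TPM in Myc WT and at 116.11, 61.85, 72.86 and 94.01 TPM in Myc VD mice. Although 3 of the 4 Myc VD libraries were below all Myc WT libraries, mouse 5 was above them, and the difference of -0.31 ± 0.22 (adjusted p = 0.506) equalled the median of all genes to within 0.01.

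None of the 10 members passed an adjusted p of 0.05 between genotypes, where 0.0466% of 12869 genes did. At an unadjusted p under 0.05, 1 member was lower and none higher, against 15.7% of all genes lower and 1.24% higher (2020 and 160 genes). After median ratio scaling this turned round for the members, with none lower and 2 higher, Nfkb1 and Nfkbie (limma's unadjusted p = 0.0344 and 0.0360), against 6.33% of all genes lower and 5.49% higher (814 and 707 genes), and the same 2 members were higher with ribosomal RNA genes removed. By quantile normalization, and without a trend in limma's variance, no member was lower or higher at that p. Nor was any without mouse 2, 3, 7 or 8, while without mouse 5 both Rel and Birc3 were lower, and the share of all genes lower ran from 9.43% to 21.5% when 1 library was left out. For Rel limma's unadjusted p was 0.342 after median ratio scaling. Groups that did not overlap were found for 2 members, both lower in Myc VD, against 9.16% of all genes. The median difference of the members was 0.04, that of all genes -0.31, and 7 of the 10 members lay above the median of all genes.

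**Figure D3:**
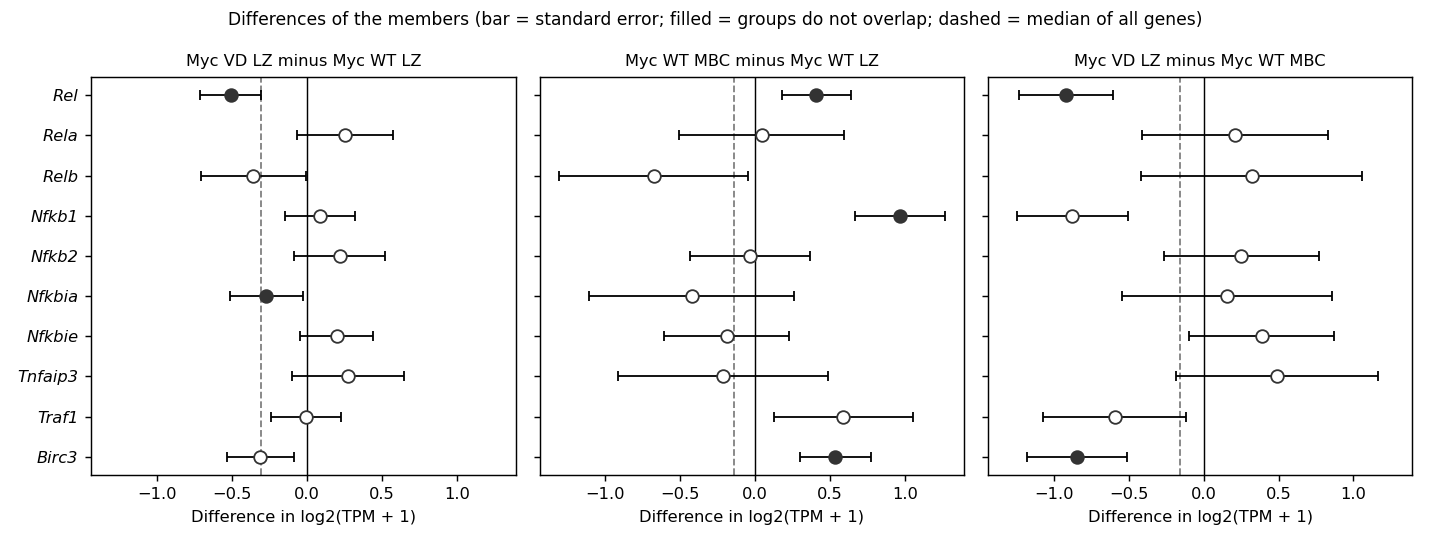
Difference in mean log2(TPM + 1) of each member (x axis) in the 3 comparisons, with its standard error; filled points mark members whose groups do not overlap, and the dashed line is the median of all genes tested (-0.31, -0.14 and -0.16). Rel lies at -0.51, 0.41 and -0.92 and is the member with filled points in all 3 panels.

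Myc WT MBCs were set against Myc WT LZ B cells to describe the family in another class of antigen-experienced B cells of the same mice. Nfkb1 had the clearest difference. It was at 69.48, 121.54 and 140.68 TPM in the MBCs of mice 1, 3 and 4, all above the 44.64 to 58.39 TPM of the 4 LZ libraries. The ratio of the means was 2.04 and the difference 0.96 ± 0.30 (limma p = 0.0107, adjusted p = 0.0778; exact permutation p = 0.0286, the smallest that 3 against 4 libraries allow). Within mice, Nfkb1 was higher in MBCs by 0.63, 1.04 and 1.33 in mice 1, 3 and 4. Without the MBCs of mouse 1 the difference rose to 1.27 and passed the threshold (adjusted p = 0.0240), while over its alternatives the adjusted p ran from 0.0240 to 0.249, the last with the mouse as a replicate block. Among mice 1 to 3 alone, whose titles share a prefix, it was 0.78 (adjusted p = 0.198).

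Rel and Birc3 were also higher in every MBC library than in every LZ library of Myc WT mice. Rel was at 155.10, 107.24 and 115.95 TPM in the MBCs of mice 1, 3 and 4, a difference of 0.41 ± 0.23 (adjusted p = 0.292; exact permutation p = 0.0286). The gap was widest in mouse 1 (0.80) and close to 0 in mouse 3 (0.08). Birc3 was at 201.38, 140.33 and 121.76 TPM in MBCs, 1.48 times the mean of LZ B cells, with a difference of 0.53 ± 0.24 (adjusted p = 0.186; exact permutation p = 0.0286) and 0.88, 0.43 and 0.24 within mice 1, 3 and 4. Among mice 1 to 3 the differences were 0.41 for Rel and 0.68 for Birc3 (adjusted p = 0.348 and 0.139). With 1 library left out, Rel ran from 0.25 to 0.51 and Birc3 from 0.33 to 0.69, both lowest without the MBCs of mouse 1. By quantile normalization they were 0.21 and 0.34. The 5 subunits summed to 250 to 319 TPM in MBCs, above the 170 to 209 TPM of Myc WT LZ B cells. Nfkb1 was 48.5 and 44.1% of that sum in mice 3 and 4 but 25.7% in mouse 1, where Rel was 57.4%.

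For Nfkbia, Nfkbie and Tnfaip3, the MBCs of mouse 3 decided the direction. Nfkbia was at 20.36 and 30.49 TPM in the MBCs of mice 1 and 4 but at 2.74 TPM in those of mouse 3. Its difference was -0.42 ± 0.68 (adjusted p = 0.733) with that library and 0.51 without it. Nfkbie was at 29.00, 10.55 and 29.52 TPM in mice 1, 3 and 4, with a difference of -0.19 ± 0.42 (adjusted p = 0.811), or 0.27 without mouse 3. Tnfaip3 was at 29.49, 3.42 and 21.18 TPM, with a difference of -0.21 ± 0.70 (adjusted p = 0.878), or 0.64 without mouse 3. Nfkb2 was also lowest in mouse 3, at 14.96, 9.72 and 23.76 TPM, with a difference near 0 (-0.03 ± 0.40, adjusted p = 0.969) that was 0.26 without those MBCs, and 0.06 without the LZ B cells of mouse 3. Rela was likewise lowest in mouse 3, at 29.55, 5.86 and 27.78 TPM, with a difference of 0.05 ± 0.55 (adjusted p = 0.969) that was 0.75 without mouse 3 but -0.33 without the MBCs of mouse 1 and -0.29 without those of mouse 4. Relb was low in mouse 1 instead, at 1.13, 6.06 and 10.52 TPM, a difference of -0.68 ± 0.63 (adjusted p = 0.531) that became 0.02 without mouse 1.

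Traf1 went the other way in that library, at 31.04, 104.53 and 30.91 TPM in mice 1, 3 and 4. Its difference was 0.59 ± 0.46 (adjusted p = 0.453) and 0.01 without mouse 3. Nfkbid, a nuclear IκB protein, was likewise at 88.19 TPM there against 6.73 and 8.42 TPM in the other MBCs. The same library had the erythroid RNA described above and the fewest genes above 0 TPM (11527, against 12983 and 16040 in the other MBCs); the part of either in these values was not tested. The ratio of Nfkbia and Nfkbie together to the 5 subunits was 18.3, 5.31 and 18.8% in MBCs of mice 1, 3 and 4 and 20.7 to 25.7% in Myc WT LZ B cells, so it was lower in all MBCs, with or without mouse 3. The summed subunits were higher in these MBCs (250 to 319 against 170 to 209 TPM). Nfkbib, a further IκB gene outside this ratio, was at 56.70, 22.77 and 25.40 TPM in them and at 34.87 to 65.45 TPM in Myc WT LZ B cells.

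**Figure D4:**
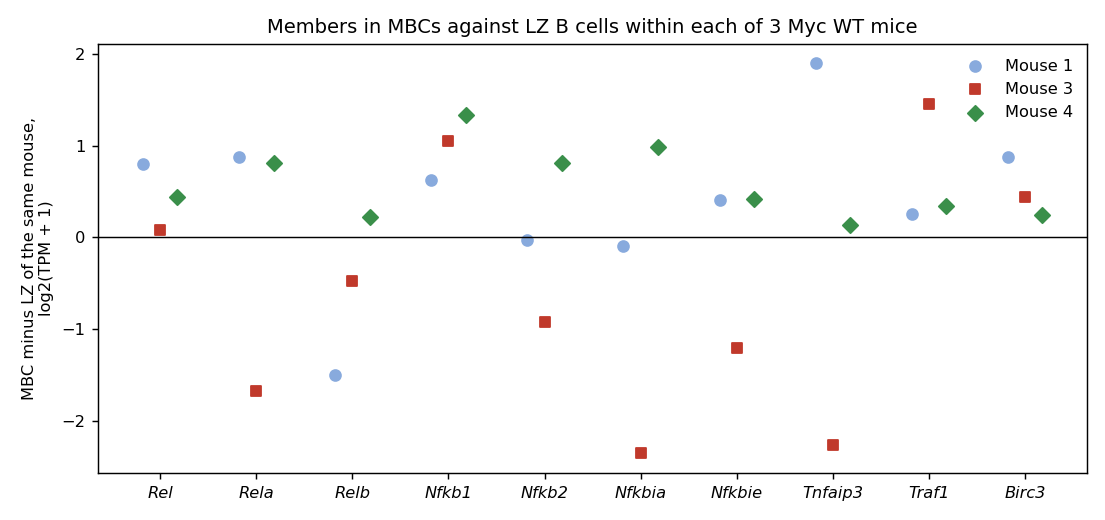
Difference in log2(TPM + 1) of MBCs from LZ B cells taken from 1 mouse (y axis) for each member (x axis) in Myc WT mice 1, 3 and 4. Rel, Nfkb1, Traf1 and Birc3 are above 0 in all 3 mice, whereas Rela, Nfkb2, Nfkbia, Nfkbie and Tnfaip3 are lowest in mouse 3.

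No member passed the adjusted threshold between MBCs and LZ B cells, where 9.2% of 13245 genes did. At an unadjusted p under 0.05, 1 member (Nfkb1) was higher and none lower, against 11.3% of all genes higher and 15.8% lower. Without the MBCs of mouse 3, 3 members were higher (Nfkb1, Birc3 and Rela), against 16.5% of all genes, and without those of mouse 4, 2 were (Nfkb1 and Birc3), against 13.0%. MBCs were above all LZ B cells for 3 members, against 11.8% of all genes. The median difference was 0.01 over the members and -0.14 over all genes.

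The 3 groups were completed by setting Myc VD LZ B cells against MBCs, a comparison that differs in both genotype and cell type and shares its libraries with the others. Rel was lowest in Myc VD LZ B cells and highest in MBCs, with means of 66.3 ± 12.2 TPM (SD, n = 4) and 126 ± 25.5 TPM (SD, n = 3), and the groups did not overlap. The difference was -0.92 ± 0.31 (limma p = 0.0138, adjusted p = 0.138; exact permutation p = 0.0286), and it passed the threshold only with all 3 groups in 1 fit (adjusted p = 0.0280). Birc3 was also below all MBCs in Myc VD LZ B cells (-0.84 ± 0.33, adjusted p = 0.198; exact permutation p = 0.0571), while Nfkb1 overlapped through mouse 5 (-0.87 ± 0.37, adjusted p = 0.226; exact permutation p = 0.0857). The other members differed by -0.59 to 0.49 with overlapping groups. The value of -0.59 was that of Traf1, which was -0.02 without the MBCs of mouse 3. No member passed the adjusted threshold, which 3.88% of 13131 genes did. At the same time 3 members were lower at an unadjusted p under 0.05 against 12.3% of all genes, and 2 were lower without overlap against 12.5%. The median of all genes in this comparison was -0.16 and moved with the scaling, to 0.09 by median ratios and 0.20 with ribosomal RNA genes removed, and the 178 genes called higher and 331 lower became 302 and 230 by median ratios. The 3 members at an unadjusted p under 0.05 (Rel, Nfkb1 and Birc3) became none by median ratios, by quantile normalization, with ribosomal RNA genes removed and without a variance trend, and 1 to 3 when 1 library was left out, with 1 left without mouse 6, mouse 7 or the MBCs of mouse 1. The difference of Rel stayed negative under all alternatives run, from -1.02 to -0.44.

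Outside the members, 68 genes of the pathway were followed in classes from receptors to target genes. Between genotypes, 59 of them were tested and none passed the adjusted threshold (0.0466% of all genes), with 9 lower (15.7% of all genes) and none higher (1.24%) at an unadjusted p under 0.05, a share near that of all genes, and their median difference was -0.23. Of the 17 target genes tested, all had a negative difference (median -0.38, against -0.31 over all genes, of which 26.3% had a positive one), but 6 of the 17 lay above the median of all genes. Cd86 and Fas, in this class, were also used for sorting. Gadd45b, an NF-κB target that counters stress signaling to JNK, was at 48.28, 49.38, 49.23 and 39.40 TPM in Myc WT and at 26.13, 19.41, 27.42 and 15.45 TPM in Myc VD LZ B cells. The groups lay far apart (-1.07 ± 0.24, adjusted p = 0.108; exact permutation p = 0.0286), a difference of -0.76 relative to the median of all genes. Without mouse 5 it was 1 of 2 genes of the list to pass the threshold, where 1.98% of all genes did.

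Between MBCs and LZ B cells of Myc WT mice, 61 genes of the wider list were tested, of which 8 were called higher and 1 lower (all genes 4.17% and 5.04%). Of 9 other negative regulators tested, 3 rose: Otud7b, a deubiquitinase, from 4.01 to 9.82 TPM across LZ libraries to 23.94, 59.10 and 30.16 TPM (2.51 ± 0.48, adjusted p = 0.0163), the ubiquitin ligase Itch (1.72 ± 0.35, adjusted p = 0.0218) and Tax1bp1 (1.24 ± 0.28, adjusted p = 0.0303), the last pair being partners of the Tnfaip3 protein. Tnfaip3 itself did not pass the test.

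Of 4 receptors tested, 1 was called higher. Of 19 target genes tested, 3 were called, in both directions. Ccr7, which guides B cells toward T cell zones, measured 0.31 to 1.37 TPM in LZ libraries, against 21.35, 18.83 and 33.00 TPM in MBCs (3.85 ± 0.49, adjusted p = 0.00352). Cd80, a costimulator that is also counted among memory markers, was at 0.41 to 0.78 TPM and at 19.20, 26.78 and 4.47 TPM (3.21 ± 0.63, adjusted p = 0.0186). Gadd45b fell, to 12.27, 7.93 and 4.57 TPM (-2.44 ± 0.38, adjusted p = 0.00725). With the mouse as a replicate block, over the 3 mice with both libraries, only Ccr7 of these 9 genes stayed past the threshold (adjusted p = 0.0457), and with the same mice and no block 3 of the 9 did, Ccr7 and Gadd45b among them. Without the MBCs of mouse 3, 10 genes of the list were called higher and 2 lower, in mice 1 to 3 alone 4 and 2, and without the LZ B cells of mouse 1, 2 or 4 the counts were 2 and 1, of mouse 3 they were 4 and 1. Without the MBCs of mouse 4 they were 7 and 4, and with no filter or no variance trend 5 and 1.

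**Figure D5:**
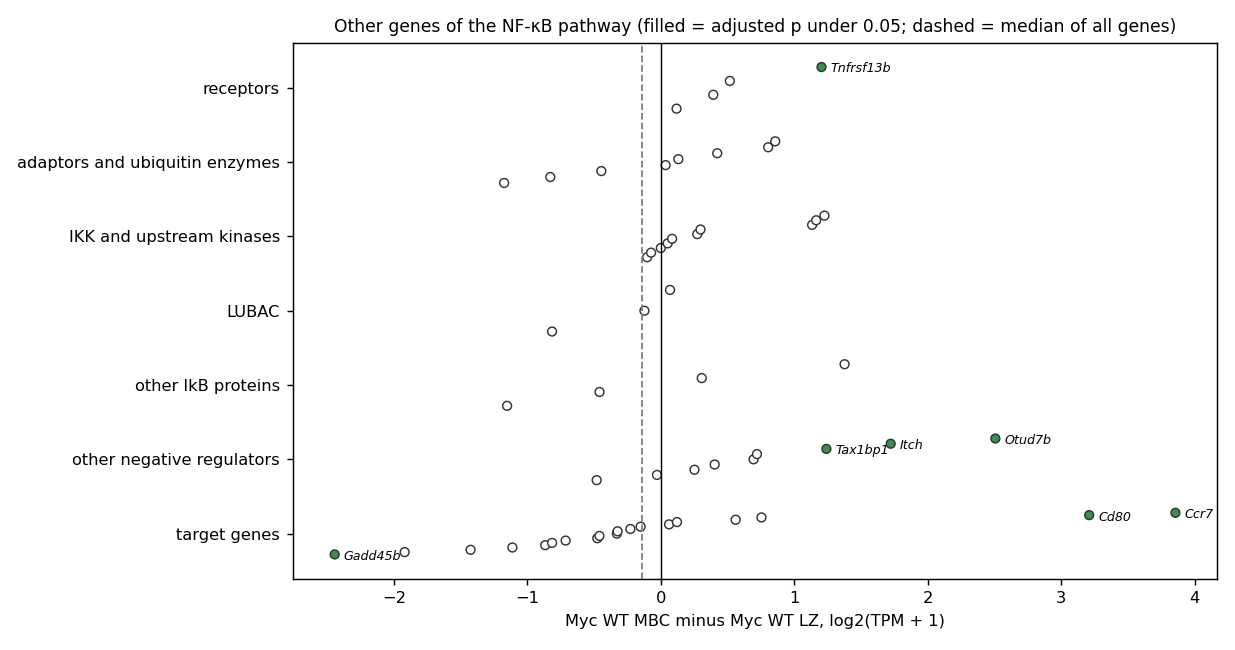
Difference in mean log2(TPM + 1) between MBCs and LZ B cells of Myc WT mice (x axis) for 57 tested genes of the wider NF-κB list, by class (y axis); filled points passed an adjusted p of 0.05 and the dashed line is the median of all genes (-0.14). The 6 genes called higher are a receptor, 3 negative regulators and 2 target genes, and Gadd45b is the gene called lower.

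Myc VD LZ B cells had less of 6 of the 61 tested genes than MBCs, and more of none (all genes 2.52% and 1.36%). Among them were Ccr7 (-3.98 ± 0.66, adjusted p = 0.00821), Cd80 (-3.72 ± 0.76, adjusted p = 0.0213), Otud7b (-2.52 ± 0.60, adjusted p = 0.0438), the BAFF and APRIL receptor Tnfrsf13b (-1.83 ± 0.41, adjusted p = 0.0325) and Prkcb, a kinase that carries signals of the B cell receptor toward IKK (-1.48 ± 0.32, adjusted p = 0.0294). Cd80 was listed at 0 TPM in mice 5, 6 and 7 and at 0.46 TPM in mouse 8. Without the LZ B cells of mouse 7 or of mouse 8, only Ccr7 of the 6 stayed past the threshold. Leaving out any of the other libraries left 2 to 5 genes called lower. With no filter or no variance trend 2 genes were called, Ccr7 in both, and by median ratios 4, with Otud7b and Tnfrsf13b no longer past the threshold (adjusted p = 0.0603 and 0.0526). With all 3 groups in 1 fit, 9 were called lower and Gadd45b higher.

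Finally, the profile of each member over the 11 libraries was set against those of 6324 protein-coding genes whose mean reached 10 TPM. Rel was most like Nek7 (Pearson's r = 0.97) and March6 (0.96), Birc3 most like Heatr5b (0.97) and Rab5b (0.95), and Nfkb1 most like Rubcnl (0.95) and Sesn1 (0.92). Nfkbia was most like Tubgcp5 (0.98) and Foxj3 (0.97). Among the members themselves, Rel and Birc3 moved together (0.70), as did Nfkbie and Tnfaip3 (0.86), while Nfkbia and Traf1 moved in opposite directions (-0.85). These values describe 11 libraries that share mice and fall into 3 groups, and those of Nfkbia, Nfkbie, Tnfaip3 and Traf1 include the MBCs of mouse 3.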

How the data were processed

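RNA of sorted B cells was analysed in 11 libraries. The authors aligned reads with STAR 2.5.2a, quantified genes of GRCm38 with RSEM 1.3.0 in a strand-specific setting (versions from the submitters' processing notes, which also name DESeq2 1.18.1) and deposited TPM with 2 decimals. TPM keep no depth, so the precision of each value comes from the spread between mice alone, and no counting interval can be given. Symbols and coordinates come from GENCODE M21 (GRCm38; 48349 of 48795 identifiers matched) and promoter windows from RefSeq (GRCm38.p6).

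Groups were compared in limma 3.58.1 (R 4.3.3; lmFit, eBayes with a trend) with TPM taken as log2(TPM + 1). A gene entered if its mean over the fitted libraries reached 1 TPM. P-values are two-sided and were adjusted by Benjamini-Hochberg over all genes tested at 0.05. Fold changes of low genes are understated on this scale. Only the 2 groups compared entered each fit. Single members were also tested by exact two-sided permutation over 70 groupings (4 against 4) or 35 (3 against 4), with a smallest p of 0.0286 (Python 3.11.15, numpy 2.4.6, pandas 2.3.3, scipy 1.17.1; figures with matplotlib 3.10.9). The fits were tested on simulated data first.

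Mice 1, 3 and 4 gave both an LZ and an MBC library, as the titles show. Their deviations from the group means had r = 0.0048, 0.0017 and -0.0351 in these mice. The study names no term for the mouse, so the block is an alternative. The others were 0.1 as the pseudocount, a minimum mean of 5 TPM or none, 3 scalings, no trend, all 3 groups in 1 fit and each library left out. Fits of mice 1 to 3, of the same mice without the block, of subunit shares without each library and of counts among the members and the wider list under each setting were added after seeing the data. All members were named, of the wider list at most 6 genes past the threshold per direction and comparison, and for likeness the 2 genes with the highest r; of those, only some are given. Some genes of these lists are not reported here. The members and lists were chosen with earlier results of these data known.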

Additional observations from a re-analysis of the deposited data

Results flagged for a closer look

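In groups of 4 libraries, the highest or lowest was compared with its gap to the nearest of the others, a rule that chance meets in about 1 in 20 groups. Over the 10 members it marked 3 values. Rela was at 20.91 TPM in LZ B cells of Myc WT mouse 3, above the 15.15 to 15.69 TPM of the other mice of that group. Tnfaip3 was at 7.20 TPM in LZ B cells of Myc WT mouse 1, below the other mice, and this library decides the sign of its difference between genotypes. Traf1 was at 34.44 TPM in LZ B cells of Myc VD mouse 7, above the 29.26 to 29.51 TPM of mice 5, 6 and 8. MBCs, with 3 libraries, were not examined this way.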

How the results depend on the processing

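Over 490 values of the 10 members under the alternatives, 455 kept their direction and side of the threshold, 33 changed sign and 2 newly passed the threshold (Nfkb1 in MBCs without mouse 1, and Rel between Myc VD LZ B cells and MBCs with all 3 groups in 1 fit). Between genotypes, the count of genes called (6) became 0 with a pseudocount of 0.1, with no filter, after median ratio scaling and with all 3 groups in 1 fit, 1 after quantile normalization and after removal of ribosomal RNA, and 15 at a mean of at least 5 TPM. Leaving out 1 library gave 0 to 254 genes, the highest without mouse 5. Between MBCs and LZ B cells, 1219 genes became 608 with no filter, and leaving out 1 library gave 342 (without LZ B cells of mouse 2) to 2754 (without MBCs of mouse 4). With the mouse as a replicate block 248 genes were called, against 342 in the same mice with no block; beside the pathway genes named above, the block changed no call of a member. Between Myc VD LZ B cells and MBCs, 509 genes became 202 with no filter, 284 with no trend and 1578 with all 3 groups in 1 fit, and 203 to 731 when 1 library was left out.

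Between genotypes, Nfkbia turned to 0.057 (median ratio) and 0.027 (ribosomal RNA removed), Traf1 to 0.33, 0.30 and, by quantile normalization, 0.25, and Birc3 to 0.033 and 0.001. With 1 library left out, Rela ran from -0.043 to 0.41, Nfkb1 from -0.080 to 0.21, Tnfaip3 from -0.068 to 0.45 and Traf1 from -0.12 to 0.089. Without a change of sign, Nfkb2 ran from 0.051 to 0.44, Nfkbie from 0.034 to 0.28 and Relb from -0.55 to -0.22. Birc3 ran from -0.46 to -0.165, Rel from -0.62 to -0.42 and Nfkbia from -0.34 to -0.16. Between MBCs and LZ B cells, Rela turned to -0.047 with ribosomal RNA removed and to -0.32 in mice 1 to 3, and Nfkb2 to 0.033 by quantile normalization. There the ranges with 1 library left out were -0.33 to 0.75 for Rela, -1.20 to 0.016 for Relb, -0.34 to 0.26 for Nfkb2, -1.03 to 0.51 for Nfkbia, -0.43 to 0.27 for Nfkbie and -0.76 to 0.64 for Tnfaip3, and the share of Rel differed by -10.2 to 0.27 percentage points. Between Myc VD LZ B cells and MBCs they were -0.49 to 0.58 for Rela, -0.37 to 0.85 for Relb, -0.044 to 0.56 for Nfkb2, -0.78 to 0.76 for Nfkbia, -0.075 to 0.63 for Nfkbie and -0.36 to 1.03 for Tnfaip3. Of 216 values of 13 differences past the threshold, those of the wider list chosen to be named, 148 stayed past the threshold, 68 did not and none changed sign. The cause of these changes was not tested. TPM without depth and 3 uneven MBC libraries limit what can be told of the members.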
